A study of Mus musculus with 15 samples.

Results

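The collagen genes of mouse skin were followed across normal skin and skin healed after wounding. Members were all genes whose symbol has the form of a collagen chain name, Col, a type number, a and a chain number. The rule found 44 of the 18929 genes in the table, and it used no measured value. By type they comprised 11 fibrillar collagens, 6 basement membrane chains of type IV, 3 other network-forming chains of types VIII and X, 9 fibril-associated collagens with interrupted triple helices (FACIT), 6 beaded filament chains of type VI, the anchoring fibril chain of type VII, 4 transmembrane collagens, 2 multiplexins and 2 others.

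The samples were dorsal skin of wild-type male balb/c mice, aged 4 to 6 weeks in the study's methods, with 3 samples in each of 5 groups. In the acellular groups, full-thickness excisional wounds 10 mm or 15 mm across had been filled with Matrigel microspheres that held no cells. In the HDB groups, wounds of the same sizes had received Matrigel microspheres loaded at high density with human umbilical cord mesenchymal stem cells, with cell-free microspheres between them, and the fifth group was normal skin. Samples were taken weeks after implantation. The comparisons ask how the collagen programme of healed skin differs with the cell-laden microspheres and from unwounded skin. The transplanted cells were human while the table lists mouse genes, and whether reads of human collagen transcripts were assigned to them was not tested. No label says that replicates came from separate mice, so the p-values measure the spread between these samples only, and in bulk tissue fewer cells of a type cannot be told apart from less RNA per cell. Keratinocyte genes, which mark skin, summed to 6547 to 20630 CPM over 8 genes in the samples. Totals lay between 15840551 and 18404188 counts per sample.

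Collagens are trimers of chains wound into a triple helix. Types I, III and V assemble into the fibrils that give dermis its tensile strength, where type V chains help set fibril diameter and type III is abundant in young and healing dermis. Type IV forms the sheet-like network of basement membranes, type VI forms microfilaments around cells, type VII anchors the epidermal basement membrane to the dermis, and the transmembrane type XVII is part of the hemidesmosomes of basal keratinocytes.

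Promoter sequences are shown for 6 genes, 4 of which (Col1a2, Col3a1, Col5a1 and Col6a1) lay higher in every HDB than in every acellular sample of 10 mm wounds, and 2 of which (Col7a1 and Col17a1) encode epidermal attachment collagens that did not. Each run is the 250 bases before a transcript start listed in RefSeq, build GRCm38.p6, read 5′ to 3′ along the gene, and motif positions count back from that start. For Col5a1 that start is not the first base of the gene's span, and the last 44 bases of its run lie inside the span. The windows are chr6:4505368-4505617 for Col1a2, chr1:45311288-45311537 for Col3a1, chr2:27886175-27886424 for Col5a1 and chr9:108953336-108953585 for Col7a1 on the plus strand, and chr10:76726045-76726294 for Col6a1 and chr19:47692043-47692292 for Col17a1 on the minus strand. Capitals mark exact matches, on either strand, to the TATA box TATAAA, the CCAAT box CCAAT, the GC box GGGCGG or the AP-1 site TGACTCA.
Col1a2: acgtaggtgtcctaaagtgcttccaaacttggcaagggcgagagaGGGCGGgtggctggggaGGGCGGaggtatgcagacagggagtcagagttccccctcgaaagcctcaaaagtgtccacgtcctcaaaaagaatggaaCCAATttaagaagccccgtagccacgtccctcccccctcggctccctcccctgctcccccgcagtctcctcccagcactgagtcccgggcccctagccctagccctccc
Col3a1: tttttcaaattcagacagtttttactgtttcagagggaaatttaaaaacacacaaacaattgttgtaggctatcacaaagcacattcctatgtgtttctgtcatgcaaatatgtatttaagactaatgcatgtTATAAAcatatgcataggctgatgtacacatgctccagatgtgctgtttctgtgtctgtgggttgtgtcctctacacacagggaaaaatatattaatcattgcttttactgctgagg
Col5a1: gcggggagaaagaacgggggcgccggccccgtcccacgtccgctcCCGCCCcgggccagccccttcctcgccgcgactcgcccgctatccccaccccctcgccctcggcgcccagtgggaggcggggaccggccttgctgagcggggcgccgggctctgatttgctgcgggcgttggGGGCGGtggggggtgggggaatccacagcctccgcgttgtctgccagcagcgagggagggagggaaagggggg
Col6a1: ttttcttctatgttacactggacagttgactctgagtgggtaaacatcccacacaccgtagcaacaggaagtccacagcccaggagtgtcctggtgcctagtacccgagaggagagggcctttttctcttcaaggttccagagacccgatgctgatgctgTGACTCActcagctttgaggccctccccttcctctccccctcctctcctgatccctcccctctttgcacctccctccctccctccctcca
Col7a1: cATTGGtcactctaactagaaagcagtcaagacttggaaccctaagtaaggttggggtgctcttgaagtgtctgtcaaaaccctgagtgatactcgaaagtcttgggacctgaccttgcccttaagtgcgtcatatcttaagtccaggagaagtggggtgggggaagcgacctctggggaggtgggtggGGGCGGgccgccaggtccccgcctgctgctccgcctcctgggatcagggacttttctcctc
Col17a1: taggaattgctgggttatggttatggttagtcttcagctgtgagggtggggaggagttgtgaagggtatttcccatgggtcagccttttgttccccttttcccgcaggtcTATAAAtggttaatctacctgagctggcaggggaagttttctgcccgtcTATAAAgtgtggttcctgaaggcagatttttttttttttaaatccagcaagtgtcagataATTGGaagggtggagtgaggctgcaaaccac

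These windows held different motifs. Col1a2 carried a CCAAT box whose first base lies at -109 and GC boxes at -205 and -188, Col5a1 carried only GC boxes, at -205 and -73, and Col3a1 carried a TATA box at -117. Col6a1 held the only AP-1 site of the 38 collagen windows, at -90. Col17a1 carried TATA boxes at -140 and -91 and a CCAAT box at -31, and Col7a1 a GC box at -61 and a CCAAT box at -249. No printed match overlapped another. Of the 38 windows, which belong to the 35 members with an entry, 57.9% held a GC box against 32.7% of 32851 windows of the same length genome-wide. The shares for the CCAAT box were 34.2% and 33.8%, for the TATA box 13.2% and 12.4%, and for the AP-1 site 2.63% and 4.46%. A match is a run of letters and not a measured binding site.

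Type III and type I chains dominated the collagen transcripts. Per kilobase of transcript and averaged over all 15 samples, Col3a1 stood at 634.7 CPM, the unit of counts scaled to the library total, Col1a2 at 614.5 and Col1a1 at 376, followed by Col17a1 at 142.5, Col6a1 at 68.0, Col4a1 at 56.9, Col6a2 at 49.7, Col5a2 at 45.3, Col6a3 at 34.1 and Col16a1 at 32.3. Below them came Col4a2 at 29.6, Col5a1 at 24.7, Col18a1 at 22.6, Col15a1 at 19.4, Col5a3 at 18.8, Col7a1 at 17.1, Col14a1 at 12.6 and Col12a1 at 9.52, all as CPM per kilobase. The cartilage collagens Col2a1 and Col9a1 were the lowest and did not pass the filter on low counts, which left 42 members for testing. Of these, Col19a1 and Col22a1 were above the filter level in all samples of 1 group only, and Col10a1, Col26a1 and Col9a2 in none.

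Together the collagen genes held 0.608%, 0.817% and 0.622% of all counts in the acellular 10 mm samples and 1.22%, 1.37% and 1.67% in the HDB 10 mm samples. In 15 mm wounds the shares were 0.527%, 0.738% and 2.10% with acellular beads and 1.18%, 1.86% and 2.21% with HDB. Normal skin held 0.815%, 2.30% and 1.32%. The groups did not overlap at 10 mm. They overlapped at 15 mm, where acellular replicate 3 stood far above the other acellular samples. Of the acellular samples, 4 lay below the lowest normal sample, and every HDB sample lay within the range of normal skin.

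Fibrillar chains lay higher in HDB than in acellular skin of 10 mm wounds. Col1a1 (chr11:94936224-94953042), which encodes the pro-alpha1 chain of type I collagen, was at 766, 1125 and 794 CPM in the acellular samples and at 1936, 2294 and 2529 CPM in the HDB samples. Its partner chain Col1a2 (chr6:4505618-4541543) was at 1217, 1835 and 1205 CPM against 2828, 3129 and 3727 CPM. Neither pair of groups overlapped, and the log2 fold changes were 1.33 (SE 0.61) and 1.19 (SE 0.60). Col3a1 (chr1:45311538-45349706), the single chain of type III collagen, was at 1155, 1858 and 1288 CPM without cells and 3324, 3717 and 4409 CPM with them, a log2 fold change of 1.41 (SE 0.57).

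Type V chains showed the same pattern. Col5a1 was at 57.6, 160.6 and 87.7 CPM in acellular and 186.9, 264.4 and 321.4 CPM in HDB 10 mm wounds, and Col5a2 at 137.7, 206.5 and 141.7 CPM against 343.3, 344.0 and 425.1 CPM. Again every HDB sample exceeded every acellular one, with log2 fold changes of 1.34 (SE 0.52) and 1.195 (SE 0.43). Among fibrillar chains at lower levels, Col24a1 was higher by 0.82 and also did not overlap, whereas Col5a3 (0.96), Col11a1 (0.41), Col27a1 (0.33) and Col11a2 (0.12) overlapped. All 10 fibrillar members tested had positive log2 fold changes at this size, with a median of 1.07, against a median of -0.0083 over all 15369 genes tested.

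The main chains of type VI collagen, which form its standard trimer, showed the same separation at 10 mm. Col6a1 was at 136.4, 198.6 and 187.7 CPM in acellular and 353.4, 329.5 and 432.6 CPM in HDB samples. Col6a2 was at 100.2, 168.0 and 152.3 CPM against 293.2, 297.2 and 377.4 CPM, and Col6a3 at 150.0, 287.7 and 259.4 CPM against 448.0, 478.8 and 566.1 CPM. Their log2 fold changes were 1.09 (SE 0.40), 1.203 (SE 0.43) and 1.10 (SE 0.42). Col6a4, Col6a5 and Col6a6, neighbours on chromosome 9 that encode chains able to take the place of Col6a3, were far lower, and their fitted log2 fold changes were 0.56, 1.83 and 1.94 with overlapping samples.

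None of these differences passed the test across all genes. With adjustment by Benjamini and Hochberg, the edgeR quasi-likelihood test called 0 of the 42 members at 10 mm, with an adjusted p of 0.9999 for each member, where it called 0.0% of all genes. DESeq2 also called 0 members, where it called 0.111% of all genes. At an unadjusted p under 0.05, 11 members (26.2%) passed against 3.53% of all genes. By the samples alone, 11 members lay higher in all HDB than in all acellular 10 mm samples, against 4.53% of all genes, namely Col1a1, Col1a2, Col3a1, Col5a1, Col5a2, Col24a1, Col6a1, Col6a2, Col6a3, Col16a1 and Col25a1. On the other side 3 members lay lower without overlap (Col17a1, Col9a2 and Col9a3), against 6.47% of all genes. Over the whole set, 33 of 42 log2 fold changes were positive with a median of 0.57, where 48.2% of all genes were positive.

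**Figure D1:**
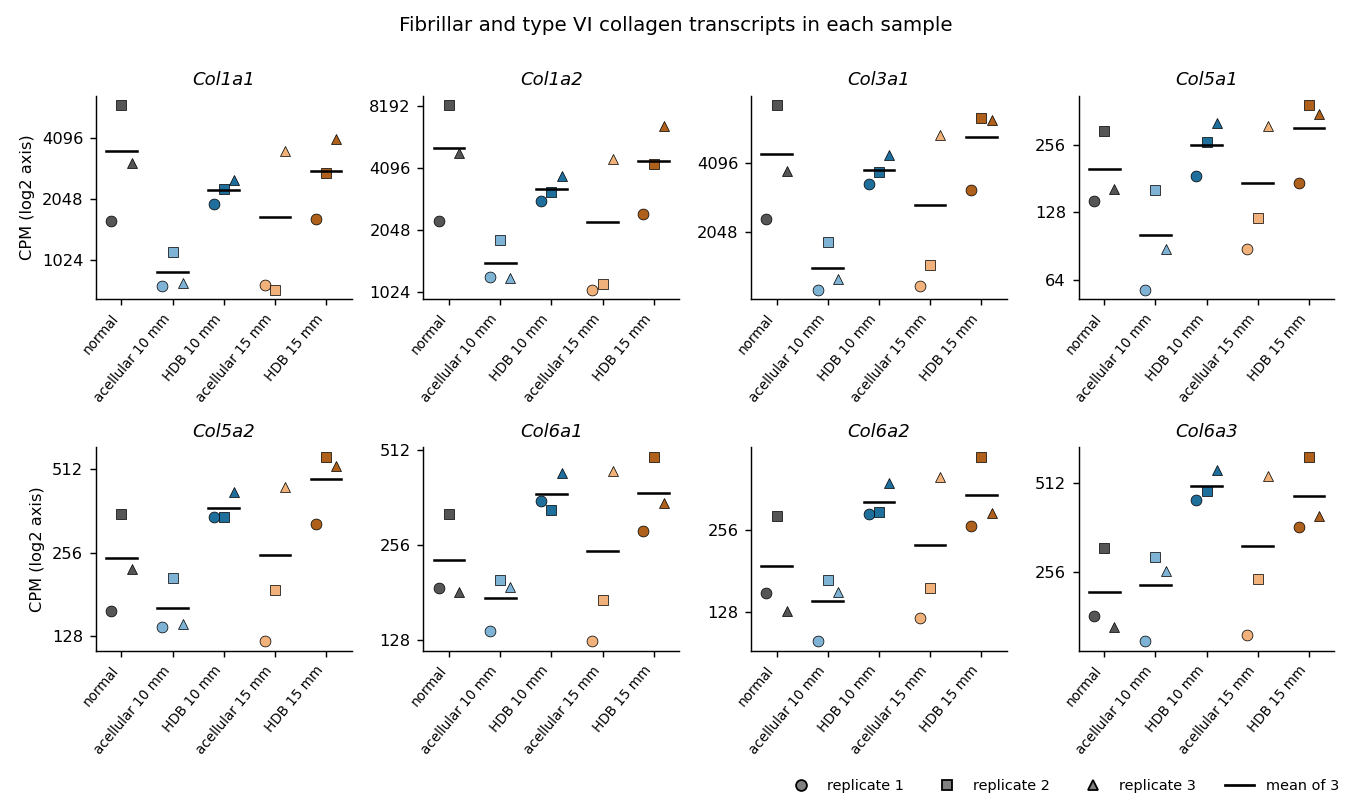
CPM (log2 axis) of 8 fibrillar and type VI collagen genes in each of the 15 samples, by group, with symbols for the replicate and bars for the mean of 3. At 10 mm the HDB samples stand above all acellular samples in each panel, while acellular 15 mm replicate 3 stands within the range of the HDB 15 mm samples.

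In 15 mm wounds the direction of the fibrillar chains was the same in most members but the samples overlapped. Col1a1 was at 773, 729.9 and 3522 CPM in acellular and 1631, 2735 and 4020 CPM in HDB skin, Col1a2 at 1049, 1117 and 4542 CPM against 2452, 4296 and 6519 CPM, and Col3a1 at 1201, 1477 and 5383 CPM against 3111, 6408 and 6258 CPM. In each case acellular replicate 3 lay inside the HDB range. Col5a1 was at 87.5, 121.5 and 312.0 CPM against 173.5, 387.1 and 353.4 CPM, and Col5a2 at 122.1, 186.8 and 443.2 CPM against 323.9, 569.3 and 528.6 CPM. The same held for Col6a1 (126.3, 171.2 and 438.7 CPM against 284.4, 488.8 and 346.8 CPM), for Col6a2 (121.9, 156.7 and 397.3 CPM against 264.2, 472.6 and 294.1 CPM) and for Col6a3 (157.5, 242.8 and 539.2 CPM against 363.3, 626.3 and 395.4 CPM).

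The fit gave log2 fold changes at 15 mm of 0.74 (SE 0.60) for Col1a1, 0.98 (SE 0.59) for Col1a2, 0.97 (SE 0.56) for Col3a1, 0.81 (SE 0.51) for Col5a1 and 0.92 (SE 0.42) for Col5a2, and between 0.56 and 0.61 for Col6a1, Col6a2 and Col6a3. edgeR called 0 of 42 members, where it called 2.93% of all genes (0.579% higher and 2.35% lower), and 5 members had an unadjusted p under 0.05 against 23.2% of all genes. DESeq2 called 4 members, Col8a1 as higher (log2 fold change 1.81) and Col18a1, Col4a5 and Col6a4 as lower, where it called 14.2% of all genes. No member lay higher in all HDB than in all acellular 15 mm samples, against 8.55% of all genes, and 2 lay lower (Col4a5 and Col6a4), against 11.7%. The median over the members was 0.35 with 28 of 42 positive, where 50.3% of all genes were positive.

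The 15 mm counts depended on acellular 15 mm replicate 3. Without it, edgeR called 10 members at 15 mm, against 14.9% of all genes. Of these, 8 rose, namely Col1a1 (log2 fold change 1.90), Col1a2 (2.03), Col3a1 (1.97), Col5a2 (1.62), Col6a1 (1.33), Col6a2 (1.30), Col6a3 (1.21) and Col8a1 (2.18), and Col18a1 (-0.81) and Col6a4 fell. Replicate 3 was the highest acellular 15 mm library for the 8 that rose, so leaving it out raised their log2 fold changes. Without that library 12 members lay higher without overlap, against 18.7% of all genes, and 4 lay lower, against 22.9%. Without acellular 15 mm replicate 1 instead, the log2 fold changes were 0.40 for Col1a1, 0.65 for Col1a2 and 0.62 for Col3a1. None of these passed in that fit, where 0.979% of all genes were called. Within same-numbered pairs of 15 mm samples, HDB was higher in all 3 for 10 members, against 19.2% of all genes, among them Col1a1, Col1a2, Col3a1, Col5a1, Col5a2, Col8a1 and Col14a1 but not Col6a1, Col6a2 or Col6a3. It was lower in all 3 for Col18a1, Col4a5 and Col6a4, against 18.0% of all genes, and the fit with the replicate block called 0 members, where it called 1.16% of all genes. The choices to leave out acellular 15 mm replicate 3 and to count pairs were made after seeing the data. That library also stood apart in other lists of marker genes, with summed levels of 2372 CPM for 10 fibroblast genes against 756.5 and 1066 CPM in the other acellular 15 mm samples, 3539 CPM for 6 adipocyte genes against 1379 and 1526 CPM, and 29.3 CPM for 13 hair shaft and inner root sheath genes against 24400 and 1863 CPM.

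Over both sizes, Col5a2 had a log2 fold change of 1.06 (SE 0.30), Col8a1 1.31 (SE 0.34), Col3a1 1.19 (SE 0.40), Col1a2 1.08 (SE 0.42), Col5a1 1.07 (SE 0.36), Col1a1 1.04 (SE 0.43), Col6a2 0.91 (SE 0.30), Col6a1 0.85 (SE 0.28) and Col6a3 0.83 (SE 0.29). edgeR called 0 of 42 (0.0% of all genes), with a lowest adjusted p of 0.261, and 13 had an unadjusted p under 0.05 against 15.8% of all genes. DESeq2 called Col5a2 (adjusted p = 0.0261) and Col8a1 (adjusted p = 0.0122), where it called 2.76% of all genes. Without acellular 15 mm replicate 3, edgeR called 7 members as higher against 1.47% of all genes called in either direction, namely Col1a1, Col1a2, Col3a1, Col5a2, Col6a1, Col6a2 and Col6a3. All 7 shared 1 adjusted p, 0.0486, just under the threshold of 0.05. The interaction of treatment and wound size gave 0 calls with edgeR (0.0% of all genes) and 4 members at an unadjusted p under 0.05 (13.4% of all genes), and DESeq2 also called 0 members, where it called 5.66% of all genes. It was positive for 13 of 42 members against 47.2% of all genes, so no difference between the sizes was shown for any member by that test.

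Marker genes of several cell types differed in the same direction as the fibrillar and type VI chains. The 10 fibroblast genes summed to 751 to 1183 CPM in acellular 10 mm, 1381 to 2118 CPM in HDB 10 mm, 756.5 to 2372 CPM in acellular 15 mm, 1816 to 3600 CPM in HDB 15 mm and 1967 to 4521 CPM in normal skin. All 10 had positive log2 fold changes for HDB against acellular over both sizes, with a median of 0.93, and edgeR called 0. So did all 7 macrophage genes (median 0.70), all 6 adipocyte genes (0.80), all 7 endothelial genes (0.55), all 8 skeletal muscle genes (0.57, with 1 of 8 positive and a median of -0.07 at 10 mm) and all 6 myofibroblast and smooth muscle genes (0.28), as well as 5 of 6 Schwann cell genes (0.58) and 5 of 8 keratinocyte genes (0.06). The 13 genes of the hair shaft and inner root sheath all had negative values (median -5.00), but their sums overlapped at both sizes. The sums were 15.3 to 1555 CPM in acellular and 33.1 to 40.15 CPM in HDB 10 mm skin. At 15 mm they were 29.3 to 24400 CPM against 117.9 to 758 CPM. The 4 tested cartilage and bone genes had 1 positive (median -0.36), and edgeR called 0 in each of these lists. Their part in the collagen differences was not tested.

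**Figure D2:**
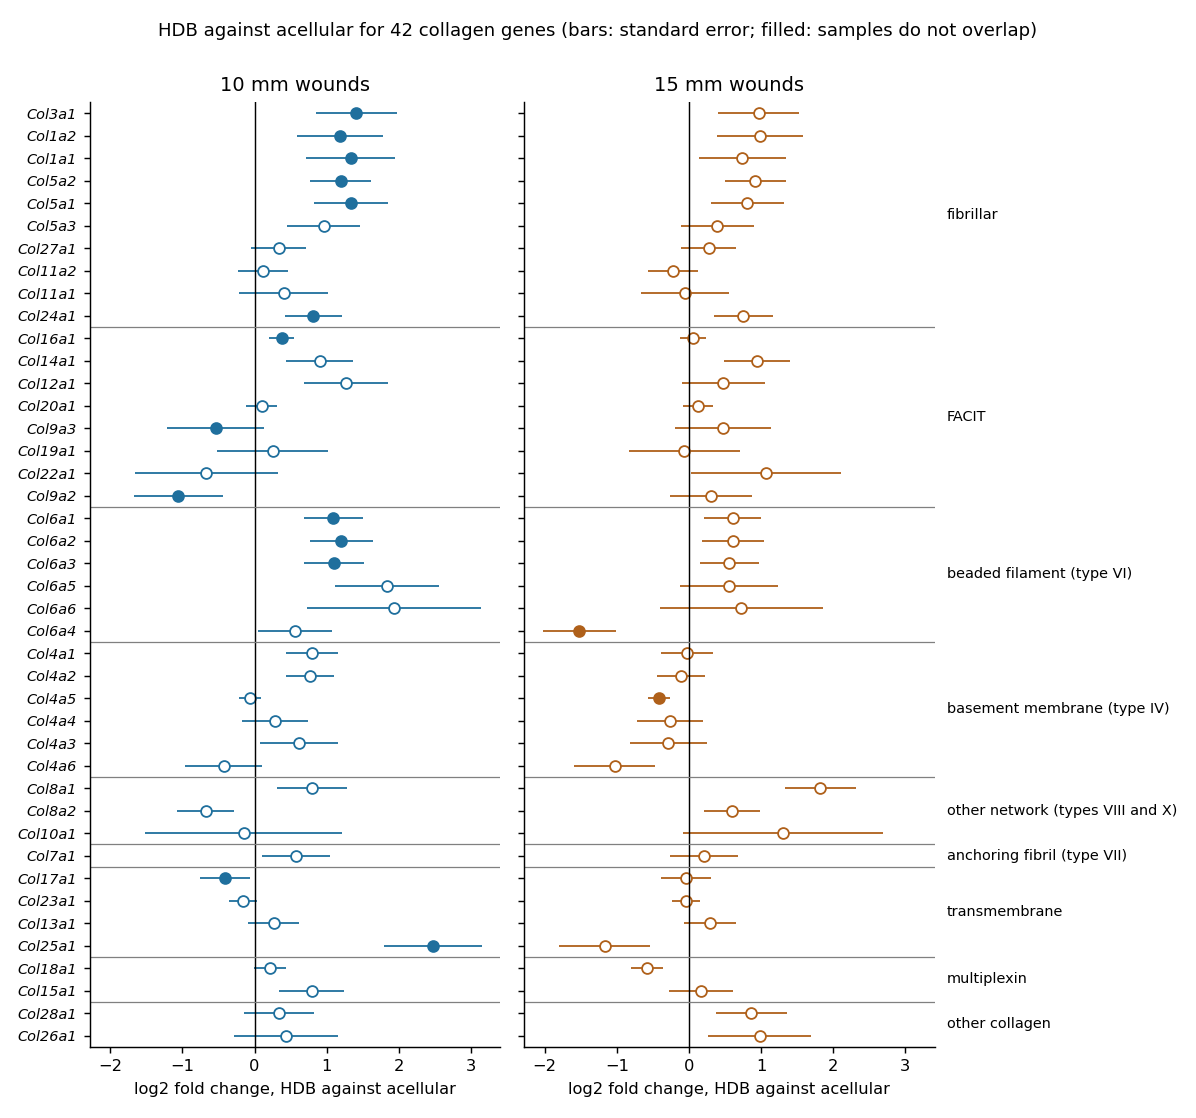
Log2 fold change of HDB against acellular wounds (horizontal axis, bars show the standard error) for the 42 collagen genes tested, ordered by type and level, in 10 mm (left) and 15 mm (right) wounds. Filled points mark genes whose 3 HDB and 3 acellular samples do not overlap, 14 genes at 10 mm and 2 at 15 mm, and no gene passed the adjusted test at either size.

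The network-forming type VIII chain Col8a1, known from vessel walls and from Descemet's membrane of the cornea, was the member with the highest log2 fold change at 15 mm. It was at 7.99, 12.6 and 19.0 CPM in acellular and 14.2, 71.2 and 54.6 CPM in HDB 15 mm skin, so that replicate 1 of HDB lay inside the acellular range. The log2 fold change was 1.82 (SE 0.49, adjusted p = 0.0641 in edgeR). At 10 mm it was at 10.3, 19.9 and 10.9 CPM against 22.1, 19.4 and 29.8 CPM, and normal skin stood at 21.6, 19.7 and 18.9 CPM. Its partner Col8a2 had log2 fold changes of -0.68 at 10 mm and 0.59 at 15 mm. Col10a1, the collagen of hypertrophic cartilage, reached at most 3.95 CPM, in 1 HDB 15 mm sample.

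Basement membrane chains did not follow the fibrillar ones at 15 mm. Col4a1 and Col4a2 encode the chains of the ubiquitous type IV trimer and lie head to head on chromosome 8, where their annotated spans share 85 bases. Col4a1 (chr8:11198423-11312889) was at 163.3, 192.7 and 204.8 CPM in acellular 10 mm, 412.5, 202.3 and 361.8 CPM in HDB 10 mm, 473.4, 468.5 and 537.4 CPM in acellular 15 mm, 486.3, 704.9 and 260.6 CPM in HDB 15 mm and 342.4, 571.2 and 261.9 CPM in normal skin. Col4a2 (chr8:11312805-11449287) was at 90.3, 99.0 and 109.0 CPM, 226.2, 102.4 and 180.9 CPM, 231.8, 248.0 and 269.4 CPM, 228.8, 333.3 and 134.9 CPM, and 180.3, 279.1 and 149.6 CPM in the same order. HDB against acellular gave log2 fold changes of 0.80 and 0.77 at 10 mm with replicate 2 of HDB inside the acellular range, and of -0.03 and -0.10 at 15 mm. All 6 type IV chains had negative values at 15 mm, with a median of -0.27, against 4 of 6 positive and a median of 0.45 at 10 mm. Without acellular 15 mm replicate 3, Col4a1 (0.04) and Col4a3 (0.25) were positive at 15 mm. The interaction called none of the type IV chains. It was negative for all 6 (median -0.71), and also for all 10 fibrillar chains tested (-0.39) and all 6 type VI chains (-0.90).

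Col4a5, whose chain is found in the basement membrane beneath the epidermis, was at 34.4, 44.3 and 33.2 CPM in acellular 15 mm and 32.1, 23.8 and 28.1 CPM in HDB 15 mm skin, without overlap, at a log2 fold change of -0.41 (SE 0.15, adjusted p = 0.130 in edgeR). At 10 mm it was at 40.6, 33.2 and 38.6 CPM against 39.4, 37.3 and 30.8 CPM. Col4a3, Col4a4 and Col4a6 stayed under 12 CPM in every sample.

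The epidermal attachment collagens Col17a1 and Col7a1 differed in sign from each other in the fit of all samples, and neither was called between HDB and acellular skin. Col17a1 (chr19:47646341-47692042) was at 1359, 909.3 and 953.7 CPM in acellular 10 mm and 833.2, 879.1 and 707.7 CPM in HDB 10 mm skin, so it was among the 3 members that were lower without overlap, at a log2 fold change of -0.41 (SE 0.35). At 15 mm it was at 324.7, 986.1 and 895.4 CPM against 891.6, 487.8 and 760.4 CPM, and in normal skin at 739.9, 586.6 and 630.7 CPM. Col7a1 was at 162.6, 174.1 and 167.6 CPM against 145.1, 340.2 and 268.5 CPM at 10 mm, at 34.6, 137.6 and 181.2 CPM against 125.4, 90.1 and 193.3 CPM at 15 mm, and at 129.8, 110.3 and 112.5 CPM in normal skin. Its log2 fold changes were 0.58 (SE 0.47) at 10 mm and 0.21 (SE 0.47) at 15 mm, with overlap, and that of Col17a1 at 15 mm was -0.04 (SE 0.35). The difference in sign at 15 mm depended on single libraries. Without acellular 15 mm replicate 1 both genes were negative (Col17a1 -0.40), and without acellular 15 mm replicate 3 both were positive (Col17a1 0.12). The lowest value of both genes fell in acellular 15 mm replicate 1. The same library had the lowest sum of 8 keratinocyte genes (6547 CPM, against 8109 to 20630 CPM elsewhere) and the highest sum of hair shaft genes, and their part in these values was not tested.

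**Figure D3:**
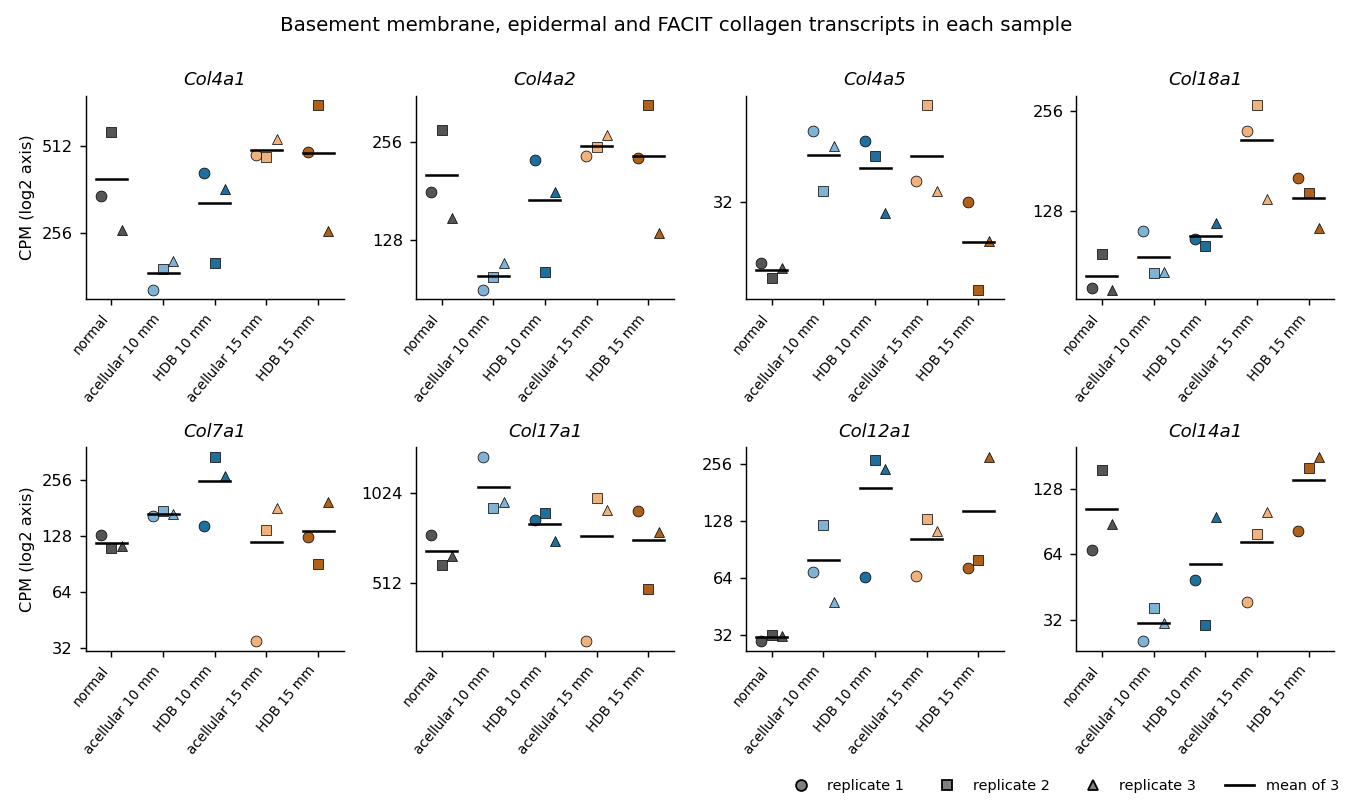
CPM (log2 axis) of type IV, multiplexin, epidermal attachment and FACIT collagen genes in each of the 15 samples, by group, with bars for the mean of 3. Col18a1 is higher in all acellular 15 mm samples than in normal skin, and Col12a1 is higher in all 12 wound samples than in normal skin.

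The FACIT chains that decorate type I fibrils, Col12a1 and Col14a1, differed in how they stood to normal skin. Col12a1 (chr9:79598987-79721141), typical of tissue under tension, was at 29.4, 31.8 and 31.6 CPM in normal skin, and every wound sample lay above that. It was at 68.9, 121.5 and 47.5 CPM in acellular 10 mm, 64.5, 267.8 and 240.4 CPM in HDB 10 mm, 65.4, 131.1 and 112.6 CPM in acellular 15 mm and 71.9, 79.7 and 279.1 CPM in HDB 15 mm skin. Against normal skin it rose in HDB 10 mm (log2 fold change 2.62, SE 0.62, adjusted p = 0.0230 in edgeR) and in acellular 15 mm (1.74, SE 0.60, adjusted p = 0.0451). In HDB 15 mm it was at 2.21 (SE 0.61, adjusted p = 0.0528) and in acellular 10 mm at 1.36 (SE 0.59, adjusted p = 0.113). Between HDB and acellular skin the log2 fold changes were 1.27 at 10 mm and 0.48 at 15 mm, with overlap, and the 15 mm value was -0.44 without HDB 15 mm replicate 3.

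Col14a1 (chr15:55307644-55520803), a FACIT of mature dermis, was at 67.0, 155.3 and 87.9 CPM in normal skin and at 25.6, 36.5 and 31.0 CPM in acellular 10 mm skin, where it fell (log2 fold change -1.74, SE 0.47, adjusted p = 0.0261). It was at 48.8, 30.4 and 94.8 CPM in HDB 10 mm, 38.6, 79.5 and 100.2 CPM in acellular 15 mm and 82.2, 159.0 and 179.1 CPM in HDB 15 mm skin, all of which overlapped normal skin. Col16a1, the FACIT with the highest level per length, was at 154.4, 144.4 and 120.9 CPM in acellular and 170.5, 178.7 and 195.0 CPM in HDB 10 mm, 136.8, 227.8 and 202.1 CPM in acellular and 195.0, 166.6 and 226.7 CPM in HDB 15 mm, and 127.4, 145.4 and 133.9 CPM in normal skin. Its HDB samples lay above the acellular ones at 10 mm and above normal skin at both sizes without overlap. With all groups fitted edgeR did not call it in any comparison, while DESeq2 called it against normal skin in acellular 15 mm (log2 fold change 0.47, adjusted p = 0.0290) and HDB 15 mm (0.52, adjusted p = 0.0304), and edgeR did so in acellular 15 mm without replicate 1 (0.67, adjusted p = 0.0102) and, with only the groups compared, in HDB 10 mm (0.40, adjusted p = 0.0397) and HDB 15 mm (0.54, adjusted p = 0.0332). Col20a1 lay between 11.9 and 22.4 CPM in every sample.

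Against normal skin, acellular 10 mm wounds had 5 called members of 42 (11.9%), where 20.3% of all genes were called (9.77% higher and 10.6% lower). Col1a1 fell (log2 fold change -1.98, SE 0.62, adjusted p = 0.0429) and so did Col1a2 (-1.85, SE 0.61, adjusted p = 0.0483), Col14a1 and Col4a2 (-1.03, SE 0.34, adjusted p = 0.0482), while Col4a5 rose (0.56, SE 0.15, adjusted p = 0.0252). Normal skin was at 1591, 5915 and 3071 CPM for Col1a1 and at 2272, 8265 and 4842 CPM for Col1a2, and each of these samples lay above every acellular 10 mm sample. Without normal replicate 2, the highest, the log2 fold changes were -1.39 and -1.34 and neither was called. Col3a1 was at 2344, 7255 and 3780 CPM in normal skin and gave -1.64 (adjusted p = 0.0580). By samples, 7 members lay above normal skin without overlap (29.1% of all genes) and 16 below it (27.2%), and 17 of 42 log2 fold changes were positive (52.0% of all genes). The count of calls fell to 0 without acellular 10 mm replicate 1 or 3 or normal replicate 2 or 3, to 2 without acellular 10 mm replicate 2 and to 3 without normal replicate 1, while the share called of all genes fell from 20.3% to between 5.14% and 11.9% in these fits. In the same comparison 5 of 10 fibroblast genes, 7 of 7 endothelial genes, 6 of 6 adipocyte genes and 6 of 7 macrophage genes fell, and their part in the collagen values was not tested.

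With HDB at 10 mm, 1 member (Col12a1) was called against normal skin, where 12.3% of all genes were called. Col1a1 was at -0.65 (SE 0.60), Col1a2 at -0.67 (SE 0.59) and Col3a1 at -0.22 (SE 0.55) on the log2 scale, and their samples overlapped normal skin. The 3 main type VI chains lay above it, with log2 fold changes of 0.70 for Col6a1, 0.77 for Col6a2 and 1.18 for Col6a3 and normal levels of 186.2, 320.1 and 181.8 CPM, 150.6, 288.0 and 129.7 CPM, and 182.9, 307.9 and 167.9 CPM. These 3 did not pass the test (lowest adjusted p = 0.0787), although no HDB 10 mm sample overlapped normal skin for any of them. Of the other type VI chains, Col6a4 was at 1.77 (adjusted p = 0.0560) without overlap, while Col6a5 (-0.25) and Col6a6 (-1.16) were negative and overlapped normal skin. Col6a3 and Col6a4 were called with DESeq2 (adjusted p = 0.0225 and 0.0264) and by edgeR with only the groups compared (0.0315 and 0.0361). By samples, 12 members lay above normal skin without overlap (25.7% of all genes did) and 3 below it (23.4%), and 23 of 42 log2 fold changes were positive (52.1% of all genes). The 1 call, on the higher side, compares with 6.1% of all genes called higher and 6.23% lower. It was lost without HDB 10 mm replicate 2 or 3 or any one normal replicate (log2 fold changes 2.31 to 2.65), fits in which 0.501% to 3.86% of all genes were called.

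Acellular 15 mm wounds had 6 called members against normal skin, all higher, where 30.2% of all genes were called and 17.6% were called higher. Col18a1 (chr10:77052178-77166530), a basement membrane collagen whose C-terminal fragment is endostatin, was at 222.4, 266.5 and 139.0 CPM against 75.2, 95.2 and 73.9 CPM in normal skin, a rise of 1.36 on the log2 scale (SE 0.22, adjusted p = 0.00358). It stood at 160.3, 144.7 and 113.7 CPM in HDB 15 mm, above normal skin by 0.78 (SE 0.22, adjusted p = 0.0575), at 111.6, 83.0 and 83.9 CPM in acellular 10 mm and at 105.1, 100.6 and 117.3 CPM in HDB 10 mm skin. HDB against acellular at 15 mm gave -0.58 (SE 0.22, adjusted p = 0.142). Its call in acellular 15 mm skin was kept under every alternative tried, including each left-out library. The related Col15a1 was at 107.6, 77.3 and 157.4 CPM in acellular 15 mm and 79.3, 156.9 and 80.9 CPM in normal skin, and at 31.9, 64.3 and 71.6 CPM, 115.9, 58.1 and 116.2 CPM, and 116.2, 198.1 and 71.3 CPM in acellular 10 mm, HDB 10 mm and HDB 15 mm skin.

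The other 5 were Col12a1, Col4a5 (0.55, adjusted p = 0.0190) and 3 chains at low level. Col6a4 was at 3.63, 1.28 and 1.12 CPM against 0.281, 0.469 and 0.201 CPM in normal skin (2.63, SE 0.55, adjusted p = 0.00704), and its log2 fold change was 1.89 without acellular 15 mm replicate 1, still called. Col9a3, a cartilage FACIT chain, was at 0.907, 12.9 and 3.61 CPM against 1.55, 1.27 and 1.27 CPM (2.08, SE 0.72, adjusted p = 0.0450), and without acellular 15 mm replicate 2 its log2 fold change was 0.73 and not called; replicate 1 lay below normal skin. Col25a1, a transmembrane collagen of neurons, was at 4.19, 3.33 and 0.797 CPM against 0.632, 0.937 and 0.671 CPM (1.88, SE 0.66, adjusted p = 0.0479), and it overlapped normal skin. Normal skin held Col4a5 at 26.1, 24.8 and 25.7 CPM, below every acellular sample. By samples, 5 members lay above normal skin without overlap (22.5% of all genes) and 6 below it (21.5%), and 26 of 42 log2 fold changes were positive (53.8%). Without any one of the normal replicates 2 of the 6 calls were left, Col18a1 and Col6a4, where 14.8% to 17.8% of all genes were called against 30.2% with all samples, and without acellular 15 mm replicate 2 (29.0% of all genes) the same 2 were left while Col22a1 was called lower (-4.44). All 13 hair shaft and inner root sheath genes also rose in this comparison, and their part in the collagen values was not tested. Of 8 cartilage and bone genes 4 passed the filter, all 4 were higher (median 2.81) and 2 rose, Sox9 and Sp7. Sox9 was at 54.2 to 146.7 CPM against 22.9 to 26.3 CPM and gave most of the list's sum, while Matn1, Matn3, Bglap and Ibsp were at or near 0 in every sample.

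The type I chains gave -1.07 (SE 0.61) and -1.197 (SE 0.60) in acellular 15 mm against normal skin and did not pass. Without acellular 15 mm replicate 3 both were called, at -2.23 (adjusted p = 0.00814) and -2.24 (adjusted p = 0.00901). HDB 15 mm wounds had 0 called members with edgeR, where 5.18% of all genes were called (2.67% higher and 2.51% lower), 10 at an unadjusted p under 0.05 against 26.9% of all genes, and 5 with DESeq2 (Col10a1, Col12a1, Col16a1, Col18a1 and Col9a3) against 18.7%. Col1a1 was at -0.34, Col1a2 at -0.21 and Col3a1 at 0.24 on the log2 scale, each overlapping normal skin. By samples, 10 members lay above it without overlap (23.8% of all genes) and 4 below it (22.6%), and 32 of 42 were positive (51.9%). The 4 comparisons with normal skin share its 3 samples. Col22a1, a collagen of muscle-tendon junctions, was at 6.32, 2.95 and 3.69 CPM in normal skin and at most 2.63 CPM in any wound sample. Skeletal muscle genes summed to 45900 to 55520 CPM in normal skin and 597 to 33360 CPM in the wounds, and their part in the Col22a1 values was not tested.

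**Figure D4:**
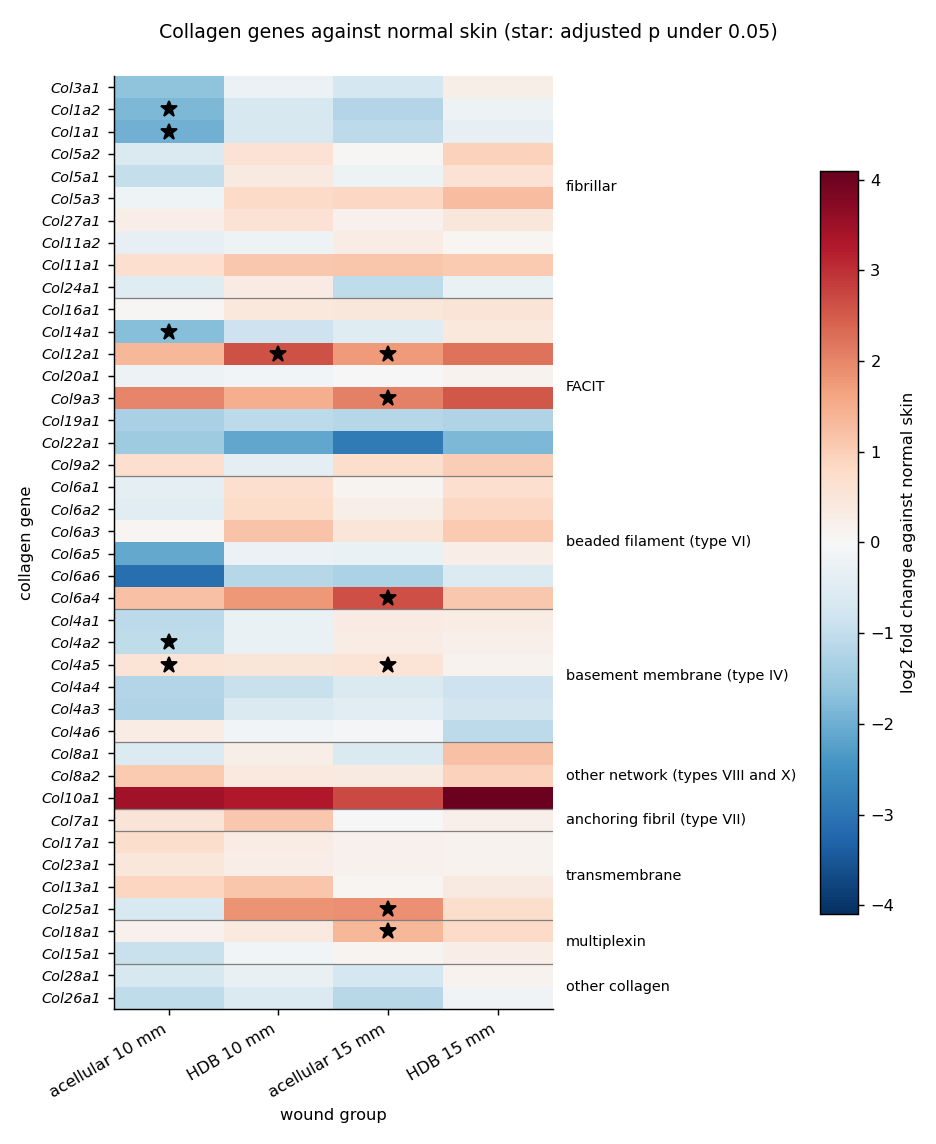
Log2 fold change of each wound group against normal skin (colour) for the 42 collagen genes tested, in rows by type and level, with stars where the adjusted p was under 0.05. There are 5 stars in acellular 10 mm, 1 in HDB 10 mm, 6 in acellular 15 mm and none in HDB 15 mm skin.

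Ratios of chains within a sample do not depend on its scaling, and they are given here as descriptions, since the contrast of all wounds with normal skin was noticed after the values were seen. The ratio of Col3a1 to Col1a1 counts was 1.51, 1.65 and 1.62 in acellular 10 mm, 1.72, 1.62 and 1.74 in HDB 10 mm, 1.55, 2.02 and 1.53 in acellular 15 mm, 1.91, 2.34 and 1.56 in HDB 15 mm and 1.47, 1.23 and 1.23 in normal skin. All 12 wound samples thus lay above the 3 normal samples. HDB and acellular skin were not distinguished by it. The mean log2 ratio was 0.846 in HDB and 0.713 in acellular samples over both sizes, a difference of 0.13 (p = 0.235 by an exact permutation test, two-sided, with labels exchanged only within a wound size, smallest possible p 0.005). The difference was 0.088 at 10 mm (exact p = 0.30) and 0.18 at 15 mm (exact p = 0.50), where 20 arrangements allow no p below 0.1, and the 3 adjusted values were 0.45, 0.45 and 0.50. This test does not use the replicate numbers, and within same-numbered 15 mm pairs the ratio was higher in HDB in all 3. A test within numbers over both sizes is given with the alternatives below.

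Col5a2 and Col12a1 were also higher relative to Col1a1 in every wound sample. These ratios and that of Col3a1 share Col1a1, which stood at 1591, 5915 and 3071 CPM in normal skin, so they are not independent. How many genes outside the set would separate in the same way was not counted. Col5a2 to Col1a1 lay between 0.126 and 0.256 in the 12 wound samples and between 0.0594 and 0.0991 in normal skin, and Col12a1 to Col1a1 between 0.0292 and 0.180 against 0.00538 to 0.0185. Col14a1 to Col12a1 was 0.113 to 2.00 in wounds and 2.27 to 4.88 in normal skin. Within type VI, Col6a3 to Col6a1 was 1.10 to 1.45 in wounds and 0.924 to 0.982 in normal skin. Col5a1 to Col1a1 did overlap, at 0.0752 to 0.166 against 0.0503 to 0.0905.

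Some partner chains varied less relative to each other than each did alone. Col1a2 to Col1a1 stayed between 1.29 and 1.63 over all 15 samples, a 1.27-fold range, while Col1a2 itself ranged 7.88-fold and Col1a1 8.10-fold. Col4a1 to Col4a2 stayed between 1.75 and 2.13, and Col6a2 to Col6a1 between 0.713 and 0.967. Col4a4 to Col4a3, at far lower levels, ranged more widely, from 1.25 to 4.03 (3.24-fold, against 6.74-fold and 6.81-fold for the chains alone), and Col6a3 to Col6a1 ranged 1.57-fold and differed between wounds and normal skin as given above. Reads from the 85 bases that Col4a1 and Col4a2 share could not be told apart unless counting used strand.

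**Figure D5:**
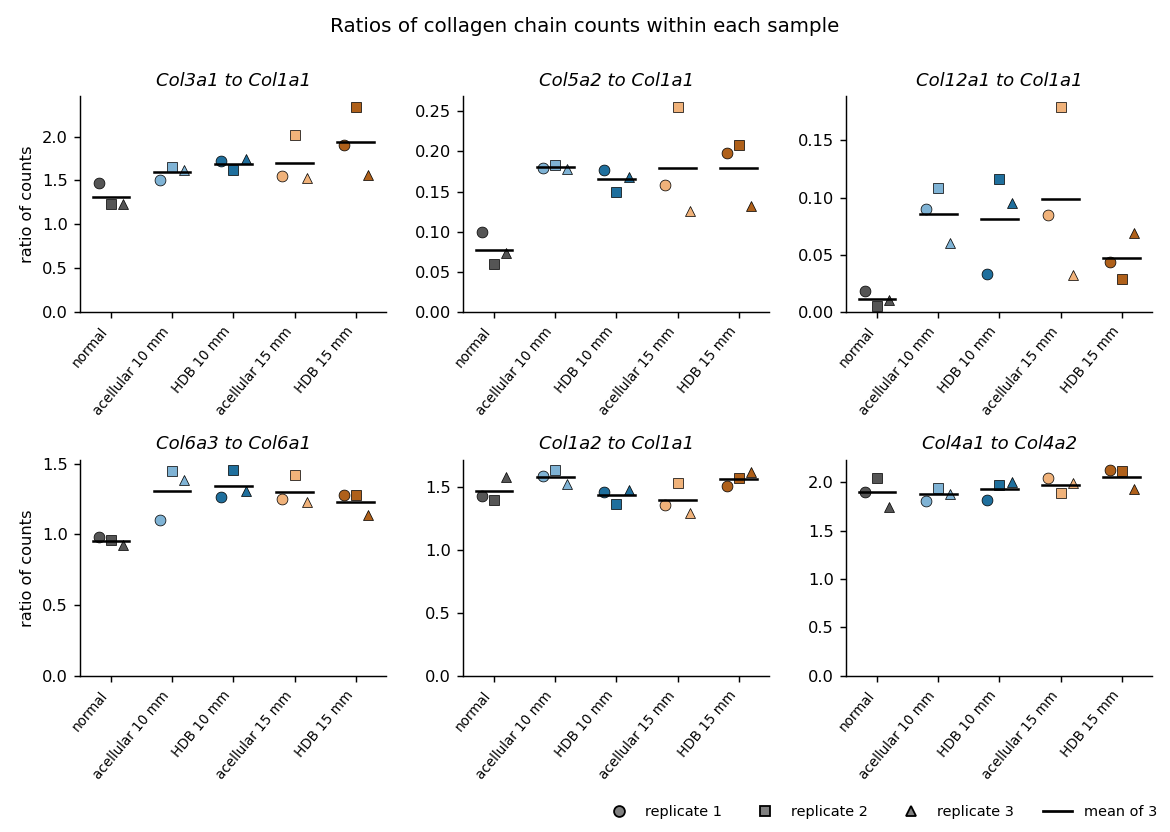
Ratio of counts of 6 pairs of collagen chains within each of the 15 samples, by group, with linear axes from 0 and bars for the mean of 3. Col3a1, Col5a2 and Col12a1 relative to Col1a1, and Col6a3 relative to Col6a1, are higher in all 12 wound samples than in the 3 normal samples, whereas Col1a2 to Col1a1 and Col4a1 to Col4a2 overlap.

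Of the remaining members, the transmembrane Col23a1 lay between 27.04 and 51.27 CPM and Col13a1 between 2.45 and 9.39 CPM over all samples. Col28a1, a collagen of peripheral nerve, was at 11.6, 13.5 and 13.5 CPM in acellular 10 mm, 20.1, 9.95 and 18.6 CPM in HDB 10 mm, 3.57, 14.5 and 18.6 CPM in acellular 15 mm, 18.0, 35.5 and 13.3 CPM in HDB 15 mm and 20.1, 19.7 and 20.4 CPM in normal skin. It was lowest in acellular 15 mm replicate 1, where 6 Schwann cell genes also had their lowest sum (131.8 CPM). Col25a1 at 10 mm was at 0.343, 0.393 and 0.702 CPM without cells and 0.710, 3.82 and 3.50 CPM with them (log2 fold change 2.47, SE 0.68), and its log2 fold change at 15 mm was -1.17. No call was made for any of these between HDB and acellular skin.

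Genes that process and crosslink procollagen leaned the same way as the fibrillar chains. With both sizes pooled, HDB against acellular gave positive log2 fold changes for 24 of 27 tested (median 0.57), and edgeR called 0. Against normal skin 3 fell and none rose in acellular 10 mm, 2 fell in HDB 10 mm, 2 rose and 2 fell in acellular 15 mm, and 2 rose in HDB 15 mm. Of all genes, 10.6% were called lower in acellular 10 mm, 6.23% lower in HDB 10 mm, 17.6% higher and 12.6% lower in acellular 15 mm and 2.67% higher in HDB 15 mm. The procollagen C-proteinase enhancer Pcolce fell in acellular 10 mm (log2 fold change -2.04), HDB 10 mm (-1.22) and acellular 15 mm (-1.36), as did Pcolce2 (-3.36, -3.00 and -2.76). The collagen chaperone Serpinh1 rose in HDB 15 mm (1.09, adjusted p = 0.0366), from 209.2, 364.6 and 238.5 CPM in normal skin to 448.7, 688.0 and 591.5 CPM. All 11 fibril-associated proteoglycans and adaptors were positive for HDB against acellular over both sizes (median 0.75, 0 called). Decorin (Dcn), which binds type I fibrils, was at 294.2, 427.7 and 325.8 CPM in acellular and 641.6, 509.5 and 725.3 CPM in HDB 10 mm skin, and it fell against normal skin in acellular 10 mm (-2.12) and acellular 15 mm (-1.64).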

How the data were processed

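RNA of 15 mouse skin samples was sequenced after oligo(dT) selection. The deposited table gives, for 18929 genes, the authors' expected counts, which carry no normalization. The submitters' processing notes name HISAT2 2.0.4, Bowtie2 2.2.5, RSEM 1.2.12 and build GRCm38.p6, without roles. All 15 columns were matched to samples by name, and counts were rounded. Tests were made with edgeR 4.0.16 (R 4.3.3). A single quasi-likelihood model held a mean for each of the 5 groups, on TMM-scaled counts of the 15369 genes that filterByExpr retained. Genes with a p under 0.05 after Benjamini-Hochberg adjustment across that set were called. Standard errors were obtained from the log2 fold change and its F statistic. CPM are TMM-scaled. Fits were tested on simulated data. Alternatives were DESeq2 1.42.0, RLE scaling, other filters, only the groups compared, the replicate block, a transcript length correction and left-out replicates. No sample was left out. The members and lists were chosen with earlier results of these data known. Values per sample are given for 16 preselected collagens of types I, III to VII, XII, XIV, XV, XVII and XVIII, the highest member of each type per length, and up to 3 most risen and fallen called members per comparison. Deviations of same-numbered samples correlated above 0.1 for all 3 numbers only between acellular and HDB 15 mm skin (0.397, 0.167 and 0.183). For HDB 15 mm and normal skin the correlations were 0.115, 0.136 and 0.0158. Differently numbered samples were not compared, and the numbers were taken to pair acellular and HDB 15 mm samples by that hint alone. Sequences and positions come from RefSeq on GRCm38.p6.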

Additional observations from a re-analysis of the deposited data

How the results depend on the processing

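Counts of called collagen genes depended on the tool and on single libraries. For HDB against acellular skin DESeq2 called 4 at 15 mm and 2 over both sizes. Against normal skin DESeq2 called 12 members after acellular treatment of 10 mm wounds, 6 after HDB of that size and 5 after HDB of 15 mm wounds, where it called 33.0%, 24.8% and 18.7% of all genes. In acellular 15 mm skin it called 9 (40.3% of all genes), with Col22a1 (-2.94) and Col24a1 (-1.06) lower, while edgeR called 6, all higher. With only the groups compared in the fit the counts were 19 and 9 for acellular and HDB wounds of 10 mm, and 2 and 7 for those of 15 mm, against 42.0%, 20.2%, 6.57% and 22.9% of all genes. No filter gave 3 in acellular 10 mm (14.4% of all genes), the stricter filter 2 in HDB 10 mm (14.8%) and 2 in HDB 15 mm (7.08%), the length trend removed gave 1 in HDB 15 mm (5.7%), and the length trend with the replicate block 3 in acellular 15 mm (23.1%). Leaving out each replicate in turn gave 0 to 0 calls for HDB against acellular at 10 mm and for the interaction, 0 to 10 at 15 mm and 0 to 7 over both sizes (both upper values without acellular 15 mm replicate 3), and against normal skin 0 to 3 for either kind of 10 mm wound (5.14% to 11.9% of all genes for acellular and 0.501% to 17.5% for HDB), 2 to 9 for acellular (14.8% to 37.3%) and 0 to 2 for HDB wounds of 15 mm (0.218% to 8.61%). Without replicate 1 or 3 of acellular 10 mm or replicate 2 or 3 of normal skin, 0 remained in acellular 10 mm, and 2 remained in acellular 15 mm without any one normal replicate. The Col3a1 to Col1a1 difference over both sizes ranged from 0.059 to 0.21. For HDB against acellular at 15 mm, leaving out replicates moved Col12a1 from -0.44 without HDB 15 mm replicate 3 to 0.80 without HDB 15 mm replicate 1, and it was 0.97 with the length trend removed.

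With the replicate block, calls against normal skin were 4 and 1 for acellular and HDB wounds of 10 mm and 5 for acellular 15 mm wounds (16.0%, 7.72% and 25.3% of all genes), and 0 elsewhere. At 15 mm, where the numbers were taken to pair samples, the block called 0 members, also with only the 15 mm groups fitted, which was added after seeing the data. A within-number sign-flip test of the Col3a1 to Col1a1 ratio over both sizes gave an exact p of 0.0938. It also used the 10 mm pairs, where same-numbered acellular and HDB samples did not deviate together (correlations -0.312, 0.0348 and -0.0780). It is thus no test of the 15 mm pairs alone. Single-gene values were followed for 45 results, namely the calls of the main fit and a fixed list of genes between HDB and acellular skin. Of their values in other fits, 618 kept direction and side of the threshold, 68 lost the threshold, 18 gained it and 1 reversed (Col12a1 above). Only called results could lose it, and 7, 10 and 10 did so without normal replicate 1, 2 and 3. Members outside these results were not counted, and Col17a1 at 15 mm turned positive (0.12) without acellular 15 mm replicate 3. The cause of these changes was not tested. Depth limits chains under about 1 CPM, such as Col9a2 and Col26a1.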

Other observations

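Collagen receptors and collagen-degrading enzymes were not described above. Ddr1, a collagen-binding receptor kinase of epithelial cells, rose against normal skin in acellular 10 mm (log2 fold change 0.91, adjusted p = 0.0145 in edgeR) and acellular 15 mm (0.88, adjusted p = 0.0114). It was at 235.6, 173.7 and 191.0 CPM in acellular 10 mm and 174.3, 246.5 and 164.8 CPM in acellular 15 mm against 120.1, 101.0 and 98.0 CPM in normal skin, without overlap. Ddr2, the related receptor of mesenchymal cells, fell in acellular 10 mm (-1.56, adjusted p = 0.0157), from 102.9, 185.3 and 163.1 CPM in normal skin to 44.0, 53.3 and 55.6 CPM. Of 9 collagen receptors tested, 7 were positive for HDB against acellular over both sizes (median 0.38, 0 called). Mmp14, a membrane-bound collagenase, rose in HDB 15 mm against normal skin (1.52, adjusted p = 0.0480), at 486.1, 512.0 and 897.7 CPM against 137.1, 253.2 and 271.3 CPM. All 5 collagenases and gelatinases tested were positive for HDB against acellular over both sizes (median 0.71, 0 called).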
